A study of Mus musculus with 6 samples.

Results

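The potassium, sodium and calcium channel subunits described here were the protein-coding genes of the deposited table whose symbols begin with Kcn and a letter, Scn and a digit, or Cacna, Cacnb or Cacng. The pattern found 134 genes among 54532 in the table, 22046 of them protein-coding. They comprised 94 potassium, 14 sodium and 26 calcium channel genes. RNA came from primary neurospheres, floating colonies of neural progenitors, grown from mouse embryos of the C57BL/6 strain at E14.5. The Ash2l cKO group (KO) carried a conditional deletion of Ash2l made with D6-Cre, a Cre transgene that acts in the dorsal forebrain, and the other group was WT. Ash2l encodes a shared subunit of the complexes that methylate lysine 4 of histone H3. Spheres of both groups had been cultured for 6 days with EGF and bFGF at 20 ng/ml each and with B27. There were 3 KO libraries, numbered 1, 2 and 3, and 3 WT libraries, numbered 3, 6 and 7. The labels give the dorsal cortex as source, while the protocol speaks of tissue dissected at the lateral ventricles, from their lateral walls. They do not say whether each library had its own embryo or culture, and p-values therefore rest on a spread that may be technical.

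Libraries held 16764480 to 21983659 counted reads, and 3 reads correspond to 0.142 to 0.173 CPM (read counts relative to the TMM-scaled library size). Ash2l was at 86.3 to 102 CPM in KO and 109 to 116 CPM in WT and did not pass the threshold (adjusted p = 0.119 in edgeR's quasi-likelihood test, with a log2 fold change of -0.24 and an SE of 0.10). Which exons were deleted is not known here, and this count over the whole gene does not measure the deletion. Progenitor genes were present in every library, with Sox2 at 185 to 299.5 CPM in KO and 534 to 613 CPM in WT, and the cortical progenitor factor Pax6 at 36.7 to 42.9 CPM in KO and 90.3 to 98.6 CPM in WT. WT 3 stood apart from the other WT libraries: on principal component 1 of log2 CPM, which held 69.9% of the variance, KO libraries lay at 53.5 to 76.8, WT 3 at -25.5, and WT 6 and WT 7 at -81.7 and -85.7. Results that rest on it are therefore given with and without WT 3. Because WT 3 was singled out from these same counts, p-values without it rest on WT libraries chosen by their values. They are no independent support. Without WT 3, 38.2% of all tested genes were called, against 29% with all libraries (edgeR).

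Ion channels set the membrane potential of neurons and glia. Inward rectifier and tandem-pore potassium channels carry the resting potassium conductance, which in astrocytes also clears potassium from the extracellular space. Voltage-gated potassium channels repolarise the action potential, sodium channels start it, and calcium channels couple it to transmitter release and gene expression. Accessory subunits, such as the beta, alpha2delta and gamma chains, set the traffic and gating of the pore-forming chains.

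Of the 134 channel genes, 103 had enough reads to be tested, and 26 of these passed the threshold of 0.05 for the adjusted p (edgeR). In KO, 16 of them rose and 10 fell. These 26 genes were 25.2% of the tested channel genes, against 29% of all 16606 tested genes, with 13.5% of all tested genes higher and 15.5% lower in KO. Across genes, the median log2 fold change (KO over WT throughout) was 0.65 for the 103 tested channel genes and 0.00 for all tested genes. Groups did not overlap in 41 of the 103, against 48.6% of all tested genes. The 31 untested genes had at most 62 reads over the 6 libraries together, and 3 of them, Kcnmb1, Kcnk16 and Kcnv2, had none. The 77 tested genes that did not pass had log2 fold changes of -1.64 to 2.18, of which 62 were above and 15 below 0, and adjusted p-values of 0.0568 to 0.971. At an unadjusted p under 0.05 there were 45 channel genes, against 7251 of all 16606 genes. All 16 genes that rose did so by more than 2-fold, as did 7 of the 10 that fell. The calls of 11 genes held whichever library was left out: Kcne1l, Kcnk2, Kcnj10, Kcna6 and Kcnn3 among those that fell, and Cacng8, Kcnc1, Kcnn4, Kcnk5, Cacna2d3 and Kcnc4 among those that rose. Without WT 3, 51 of 108 tested channel genes were higher and 17 lower in KO, when 38.2% of all tested genes were called. Calls dropped among channel genes and among all genes when another library was left out: without WT 6, 7 channel genes were higher and 5 lower and 12.8% of all tested genes were called. Leaving out WT 7 gave 7 higher and 6 lower (14.4% of all genes called), leaving out KO 2 gave 7 and 6 (14.6%), and leaving out KO 1 gave 9 and 7 (16.8%). With all 6 libraries, DESeq2 called 35 of 117 tested channel genes higher and 10 lower, against 14.7% of all genes higher and 13.9% lower. Limma-voom with quality weights called 53 of 103 higher and 15 lower, against 24.9% of all genes higher and 23.6% lower.

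**Figure D1:**
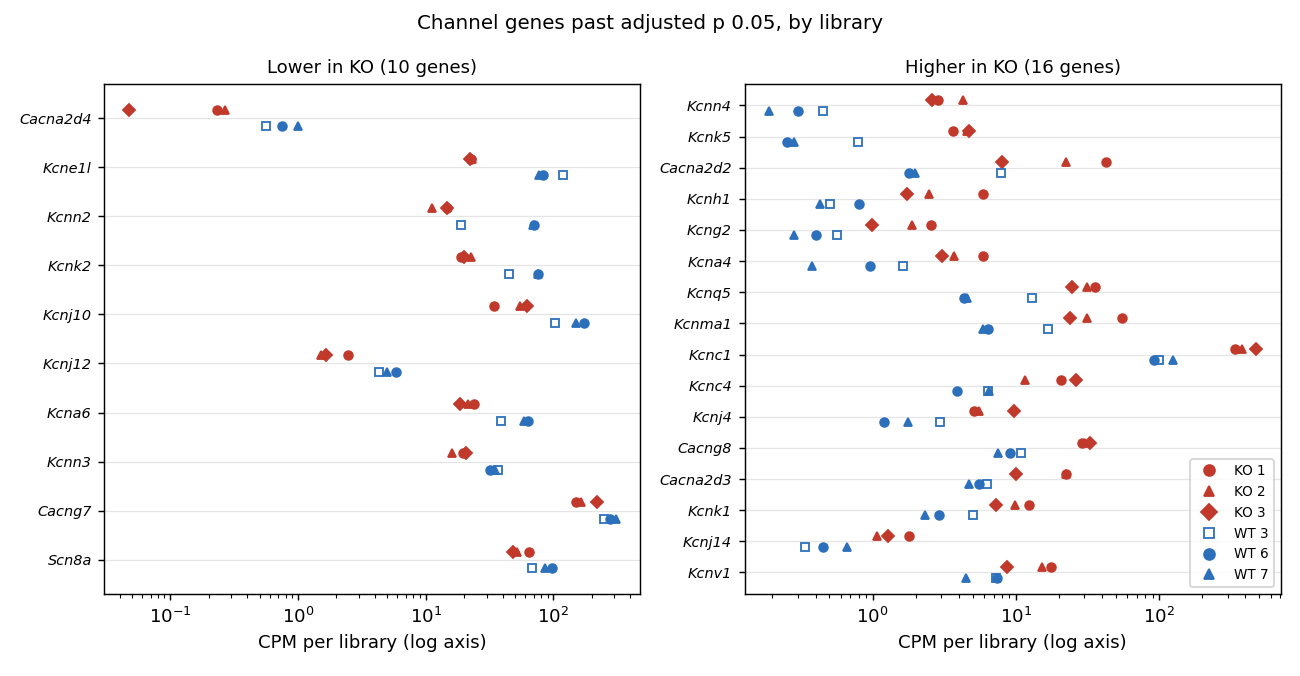
CPM of the 26 channel genes past an adjusted p of 0.05 in each library, on a log axis, with KO libraries in red above WT libraries in blue and WT 3 as open squares. KO and WT do not overlap in any of the 26 genes, which were picked by p-values from these same values. Of all tested genes, 48.6% do not overlap. WT 3 lies nearest to KO among WT libraries in 8 of the 10 genes that fell and 11 of the 16 that rose. In all tested genes, called or not, WT 3 lies below both other WT libraries in 41.4% and above both in 40.6%.

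Levels per gene length were compared with the authors' FPKM. Cacng7, a gamma subunit that also assists AMPA receptors, had the highest level of the channel genes in both groups, at 74.1 ± 13.9 FPKM in KO and 112 ± 9.04 FPKM in WT (SD, n = 3 each). It was followed in KO by Kcnip3 at 53.1 ± 16.0 FPKM and Kcnc1 at 42.8 ± 6.94 FPKM, values whose difference lies within 1 SD of Kcnip3. In WT the order after Cacng7 was Kcne1l at 59.3 ± 16.97 FPKM, Kcnip3 at 37.8 ± 2.88 FPKM and Kcnj10 at 25.6 ± 5.75 FPKM. At least 1 FPKM in either group was reached by 76 of the 134 genes.

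The start regions of 4 genes are shown, because their calls held without any single library and they stand for the glial and accessory genes that fell and the voltage-gated and tandem-pore genes that rose. Each sequence is the 250 bases before the start site in RefSeq (GRCm38.p6, the assembly of the mm10 build), read along the gene's strand, with CG dinucleotides in capitals.
Kcnj10 (fell, chr1:172340960-172341209, plus strand): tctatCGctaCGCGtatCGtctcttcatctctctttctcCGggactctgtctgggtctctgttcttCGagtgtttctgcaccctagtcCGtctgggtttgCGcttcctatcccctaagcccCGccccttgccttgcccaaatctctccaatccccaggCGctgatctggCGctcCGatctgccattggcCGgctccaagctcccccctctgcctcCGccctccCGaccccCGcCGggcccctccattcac
Kcne1l (fell, chrX:142306199-142306448, minus strand): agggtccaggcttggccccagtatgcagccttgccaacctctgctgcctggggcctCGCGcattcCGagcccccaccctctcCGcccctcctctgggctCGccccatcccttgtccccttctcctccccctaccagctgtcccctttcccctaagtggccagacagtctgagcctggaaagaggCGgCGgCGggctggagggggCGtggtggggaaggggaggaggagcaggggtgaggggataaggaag
Kcnc1 (rose, chr7:46396218-46396467, plus strand): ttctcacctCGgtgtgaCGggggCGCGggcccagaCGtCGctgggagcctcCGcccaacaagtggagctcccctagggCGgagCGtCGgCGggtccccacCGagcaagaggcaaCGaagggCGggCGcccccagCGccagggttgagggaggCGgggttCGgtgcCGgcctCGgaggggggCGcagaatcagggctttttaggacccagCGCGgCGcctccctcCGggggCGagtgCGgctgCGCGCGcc
Kcnk5 (rose, chr14:20181783-20182032, minus strand): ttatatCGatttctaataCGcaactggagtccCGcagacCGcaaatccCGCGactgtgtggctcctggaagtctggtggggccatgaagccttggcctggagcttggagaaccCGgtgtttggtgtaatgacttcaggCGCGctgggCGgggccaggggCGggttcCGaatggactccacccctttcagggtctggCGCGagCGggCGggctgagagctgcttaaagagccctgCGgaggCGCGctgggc
CG counts were 17 for Kcnj10, 9 for Kcne1l, 30 for Kcnc1 and 19 for Kcnk5. Of all 32851 start regions in the RefSeq table, 23.5% hold at least 17 CG dinucleotides, 40.3% at least 9, 5.94% at least 30 and 19.7% at least 19. The start site lies at the first base of the deposited gene span for Kcnj10, and 29 bases before that span for Kcnc1. For Kcne1l and Kcnk5 it lies inside the span, so that the last 96 and 27 bases printed belong to the deposited gene. Start regions were found for 99 of the 134 genes, some with several. The median CG count was 15.5 over 14 regions of 13 genes that rose and 9 over 12 regions of 8 genes that fell. It was 8 over 81 regions of 52 tested channel genes that did not pass, and 6 over all regions. Ranges overlap, with 0 to 35 for genes that rose and 2 to 30 for those that fell. The motif TATAAA, searched on both strands, was in none of the 26 regions of called genes and in 12.4% of all regions. It was also rare in the other channel genes, in 4 of 81 regions of uncalled and 1 of 28 regions of untested ones. No mark or binding was measured at these sites in the files used here.

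Among inward rectifiers, 9 of 15 genes were tested, 2 rose and 2 fell, with a median log2 fold change of 0.47. Beside this and the 6-library edgeR counts of groups and markers below, 13.5% of all tested genes were higher and 15.5% lower in KO. Kcnj10, the main inward rectifier of astrocytes and oligodendrocytes, was measured at 34.4, 54.7 and 61.7 CPM in KO 1, KO 2 and KO 3, against 103, 173 and 151 CPM in WT 3, WT 6 and WT 7. No KO library reached the lowest WT library, WT 3, and Kcnj10 was 2.83-fold lower in KO (-1.50 on the log2 scale, SE 0.27, adjusted p = 0.00822, edgeR). Values in parentheses below are log2 fold changes in the same way. In bulk samples, fewer cells of a type and less RNA per cell cannot be told apart. Kcnj16, which encodes the partner chain of the Kcnj10 product in glia, had 8.99, 9.61 and 5.49 CPM in the KO libraries in order of number, against 3.42, 22.8 and 21.9 CPM in WT 3, WT 6 and WT 7. Here WT 3 was the lowest of all libraries, and Kcnj16 did not pass with all 6 libraries (2-fold lower in the fit, SE 0.64 on the log2 scale, adjusted p = 0.266), while it did without WT 3 (-1.48, adjusted p = 0.00473, both edgeR). Astrocyte markers moved with these genes: 9 of 12 fell and 0 rose, with a median of -2.33, and their summed level was 1937, 2710 and 1763 CPM in the KO libraries, against 3746, 9997 and 11090 CPM in WT 3, WT 6 and WT 7. Oligodendrocyte lineage markers fell in 9 of 13 genes, with 0 higher, a median of -3.42 and sums of 1180 to 2190 CPM in KO and 4870 to 6400 CPM in WT. No marker of either list was without reads in a group, and the part of these cells in the result was not tested.

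Kcnj12, which encodes a strong inward rectifier, also fell, with 2.48, 1.51 and 1.66 CPM in KO 1, KO 2 and KO 3 and 4.32, 5.82 and 4.97 CPM in WT 3, WT 6 and WT 7 (-1.42, SE 0.30). Kcnj4, a strong inward rectifier of forebrain neurons, had 5.13, 5.51 and 9.74 CPM in KO and 2.97, 1.21 and 1.75 CPM in WT and rose 3.44-fold (1.78, SE 0.43). Kcnj14, another member of that subfamily, was at 1.79, 1.08 and 1.28 CPM in KO and at 0.337, 0.452 and 0.663 CPM in WT (1.49, SE 0.39). Adjusted p-values of these 3 calls were 0.0143 to 0.0299 (edgeR). The Kcnj12 call ended without KO 2 or WT 6, the Kcnj4 call without KO 2, KO 3, WT 6 or WT 7, and the Kcnj14 call when any library was left out. Kcnj3, a G protein-gated channel gene, averaged 9.32 ± 3.12 CPM in KO and 2.71 ± 2.46 CPM in WT (SD, n = 3 each) and did not pass in the main 6-library fit (1.78, SE 0.62, adjusted p = 0.0698, edgeR), but did without WT 3 (2.84, adjusted p = 0.00152, edgeR). With all 6 libraries, Kcnj3 was called higher by edgeR without a filter, DESeq2, limma-voom and limma on both log2 FPKM scales. Kcnj11, the pore of the ATP-sensitive channel, stood at 0.47 (SE 0.47) and also passed without WT 3 (1.10, adjusted p = 0.0470, edgeR). Kcnj8, known as a pericyte gene, had 0, 2 and 1 reads in the KO libraries and 0 reads in each WT library.

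Tandem-pore channels carry background potassium current. Of 14 genes 9 were tested, 2 rose and 1 fell, with a median of 0.45. Kcnk2, a channel opened by stretch and lipids, had 19.0, 22.8 and 20.1 CPM in KO 1, KO 2 and KO 3, against 44.6, 75.8 and 75.2 CPM in WT 3, WT 6 and WT 7. KO libraries were close together and all below WT, 3.16-fold lower in the fit (-1.66, SE 0.22, adjusted p = 0.00348, edgeR). Its span overlaps the pseudogene Pdcd5-ps, which has over 10% as many reads. Kcnk5, an alkaline-activated channel gene, had 3.63, 4.59 and 4.68 CPM in the KO libraries and 0.785, 0.251 and 0.284 CPM in WT 3, WT 6 and WT 7. This 9.80-fold rise was among the largest of the channel genes (3.29, SE 0.47, adjusted p = 0.00413, edgeR), rested on 14, 5 and 6 WT reads, and stood at 3.97 without WT 3. Kcnk1, a weakly inward-rectifying background channel gene, was at 12.4, 9.93 and 7.28 CPM in KO and 5.05, 2.91 and 2.32 CPM in WT (1.53, SE 0.36, adjusted p = 0.0221, edgeR). That call ended without KO 1, KO 2, WT 6 or WT 7. Among the genes that did not pass, Kcnk10, a close relative of Kcnk2, was level at 25.3 ± 4.58 CPM in KO and 25.0 ± 5.06 CPM in WT (SD, n = 3 each), with a log2 fold change of 0.02 (SE 0.21) whose sign changed without KO 1 or WT 7. Kcnk3, an acid-sensitive channel gene, stood at 0.45 (SE 0.30), and Kcnk12, of a halothane-inhibited subfamily, at 1.72 (SE 0.67), which passed without WT 3 (2.72, adjusted p = 0.00754, edgeR). With all libraries kept, Kcnk12 was called higher by edgeR without a filter, DESeq2 and limma-voom.

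Of 40 pore-forming voltage-gated potassium genes, 34 were tested, 7 rose and 1 fell, and the median log2 fold change was 0.90. Kcnc1, a fast-deactivating channel of rapidly firing neurons, was the most abundant gene that rose, with 338, 381 and 475 CPM in KO 1, KO 2 and KO 3, against 100, 92.1 and 124 CPM in WT 3, WT 6 and WT 7. WT 3 lay between the other WT libraries here, and Kcnc1 rose 3.77-fold (1.92, SE 0.18, adjusted p = 0.00133, edgeR), with a log2 fold change of 1.88 without WT 3. Kcnc4, of the same subfamily, had 20.8, 11.6 and 26.2 CPM in KO and 6.39, 3.87 and 6.49 CPM in WT (1.81, SE 0.36, adjusted p = 0.0117, edgeR).

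Kcna6, a delayed rectifier of the Shaker subfamily, was the only pore-forming voltage-gated potassium gene that fell in the 6-library fit, with 24.0, 21.5 and 18.6 CPM in KO 1, KO 2 and KO 3, against 38.7, 63.7 and 59.3 CPM in WT 3, WT 6 and WT 7 (-1.33, SE 0.21, adjusted p = 0.00556, edgeR). Kcna2 of the same subfamily was at 194 ± 30.0 CPM in KO and 297 ± 85.8 CPM in WT, and Kcnd2, of the A-type channels, at 29.6 ± 13.6 CPM in KO and 58.7 ± 19.6 CPM in WT (SD, n = 3 each). Neither passed in the 6-library edgeR fit (-0.61 and -0.99, adjusted p = 0.081 and 0.0839), and both did without WT 3 (-0.80 and -1.22, adjusted p = 0.012 and 0.0258, edgeR). Kcnd2 also passed without KO 2 (-1.42, adjusted p = 0.0390, edgeR). With all libraries kept, edgeR without a filter and limma-voom called both genes lower, and DESeq2 called Kcnd2 lower. Kcnd3, the other abundant A-type gene, stood at 0.29 (SE 0.24) and did not pass.

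Kcnq5, a subunit of the M-type current that restrains firing, had 35.6, 31.1 and 24.6 CPM in KO and 12.8, 4.37 and 4.59 CPM in WT 3, WT 6 and WT 7 (2.07, SE 0.44, adjusted p = 0.0152, edgeR). Kcnq5 stood at 2.76 without WT 3, and its call ended without KO 1, KO 2 or WT 6. The other called genes of the group had lower levels. Kcnh1, of the ether-a-go-go family, was at 3.37 ± 2.20 CPM in KO and 0.578 ± 0.199 CPM in WT (2.53, SE 0.56), was 1.89 without KO 1 and lost its call without WT 7. Kcna4, an A-type Shaker gene, was at 4.21 ± 1.53 CPM in KO and 0.987 ± 0.625 CPM in WT (2.10, SE 0.54). The genes Kcng2 and Kcnv1, which encode silent subunits that act only in combination with other chains, were at 1.81 ± 0.775 and 13.9 ± 4.64 CPM in KO and at 0.416 ± 0.139 and 6.39 ± 1.64 CPM in WT (2.11, SE 0.47, and 1.12, SE 0.33; SD, n = 3 each). Calls of Kcna4, Kcng2 and Kcnv1 ended without KO 1, KO 2, WT 6 or WT 7. Adjusted p-values of these 4 genes lay between 0.0168 and 0.0440 (edgeR). The span of Kcnh1 overlaps Hhat and that of Kcnq5 overlaps Gm7658, each of which has over 10% as many reads as the channel gene, and how many reads are shared was not measured. The same holds for Kcnk3 with Gm9899, Kcnab2 with Nphp4 and Kcnmb4 with its antisense gene Kcnmb4os2. The 26 tested genes of the group that did not pass spanned -1.54 to 1.79, with 20 above and 6 below 0. Summed over the 40 genes, the level was 1260, 1222 and 1320 CPM in KO and 882, 925 and 1047 CPM in WT, to which Kcnc1 contributed most of the difference.

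**Figure D2:**
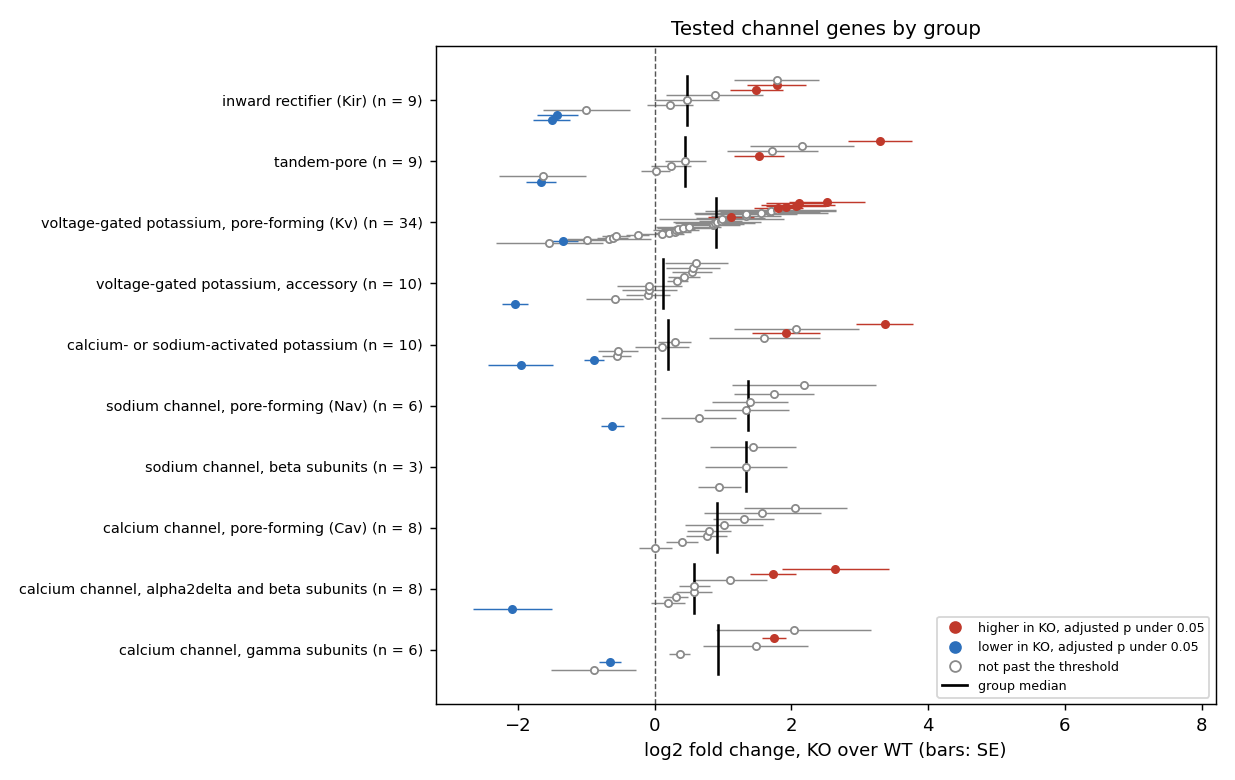
Log2 fold change of KO over WT with its SE for the 103 tested channel genes, by channel group, with genes past the threshold filled and group medians as vertical bars. Group medians are all above 0, from 0.13 in accessory potassium subunits to 1.36 in pore-forming sodium channels, and genes called lower occur in 8 of the 10 groups.

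Accessory subunits of voltage-gated potassium channels had 10 of 13 genes tested, with 1 lower, 0 higher and a median of 0.13. Kcne1l is a single-span accessory subunit on the X chromosome, which in human is called KCNE5 and damps the KCNQ1 channel. It had the lowest p of all 26 called channel genes, with 22.8, 22.9 and 22.1 CPM in KO 1, KO 2 and KO 3, against 120, 82.3 and 76.8 CPM in WT 3, WT 6 and WT 7. KO libraries were nearly equal and 4.11-fold below WT (-2.04, SE 0.18, adjusted p = 0.00126, edgeR). WT 7 differed from the other libraries in sex-linked transcripts, with 11 reads of Xist against 25631, 23632 and 32344 in KO 1, KO 2 and KO 3 and 38917 and 44431 in WT 3 and WT 6. Reads of the sex-linked Ddx3y numbered 1657 in WT 7, 12, 0 and 0 in the KO libraries and 0 in WT 3 and WT 6. The part of sex in the Kcne1l result, and in the other results, was not tested. Kcnq1 itself had 1, 0 and 1 reads in the KO libraries and 0, 4 and 4 in the WT libraries, within the span of the antisense gene Kcnq1ot1. Kcnip3, a calcium sensor that binds A-type channels and also acts as a transcriptional repressor, was at 185 ± 57.5 CPM in KO and 137 ± 14.52 CPM in WT (SD, n = 3 each) and did not pass (0.43, SE 0.24, adjusted p = 0.203, edgeR), though it did without KO 1 (0.70, adjusted p = 0.0221). Kcnip2 stood at -0.58 (SE 0.42) and the beta subunit gene Kcnab2 at 0.33 (SE 0.15), and neither passed.

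Of 12 genes of potassium channels opened by calcium or sodium, 10 were tested, 2 rose and 2 fell, with a median of 0.20. Small-conductance channels of neurons are opened by calcium through calmodulin and shape the afterhyperpolarisation. Among their genes, Kcnn3 had 19.7, 16.1 and 20.6 CPM in KO, against 36.9, 32.1 and 35.2 CPM in WT 3, WT 6 and WT 7 (-0.89, SE 0.15, adjusted p = 0.0065, edgeR). Kcnn2 was at 14.8, 11.3 and 14.8 CPM in KO and 19.0, 70.0 and 69.5 CPM in WT (-1.96, SE 0.47, adjusted p = 0.0226, edgeR), with WT 3 close to the KO libraries. Its call ended when any library other than WT 3 was left out. Kcnn4, the intermediate-conductance channel gene, known from blood, epithelial and dividing cells, moved the other way, with 2.88, 4.26 and 2.60 CPM in KO and 0.449, 0.301 and 0.189 CPM in WT. Its 10.3-fold rise was the largest of the called channel genes (3.37, SE 0.42, adjusted p = 0.00282, edgeR) and rested on 50, 79 and 55 reads in KO and 8, 6 and 4 in WT. All 12 cell cycle genes listed rose too, with a median of 3.34 and sums of 1750 to 2370 CPM in KO and 133 to 310 CPM in WT, and their part in the Kcnn4 result was not tested. Kcnma1, the large-conductance channel gene, had 54.6, 31.5 and 23.9 CPM in KO and 16.9, 6.38 and 5.87 CPM in WT (1.92, SE 0.49, adjusted p = 0.0279, edgeR), stood at 2.58 without WT 3 and lost its call without KO 1, KO 2, WT 6 or WT 7. Kcnn1 (-0.55, SE 0.21), the sodium-activated Kcnt1 (-0.53, SE 0.30) and the accessory Kcnmb4 (0.29, SE 0.24) did not pass in the 6-library fit, while Kcnn1 did without KO 3 (-0.75, adjusted p = 0.0330, edgeR). Limma-voom called Kcnn1 lower with all 6 libraries.

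Sodium channel genes showed wide spread between WT libraries and few calls. Of 10 pore-forming genes 6 were tested, 1 fell and 0 rose, and of 4 beta subunit genes 3 were tested and 0 passed in either direction. At an unadjusted p under 0.05 (edgeR) there were 3 and 1 of these genes, against 7251 of all 16606 tested genes. DESeq2 called 3 of 8 pore-forming and 4 of 4 beta subunit genes higher, where 14.7% of all genes were higher. Limma-voom called 4 of 6 and 3 of 3 higher, where 24.9% of all genes were. Both called 1 pore-forming gene, Scn8a, lower. Scn8a, which carries much of the current at the axon initial segment and nodes of Ranvier, had 64.7, 51.5 and 48.0 CPM in KO and 68.1, 97.8 and 85.7 CPM in WT 3, WT 6 and WT 7. It fell by 0.62 on the log2 scale (SE 0.17, adjusted p = 0.0374, edgeR). Its call ended without KO 2, KO 3, WT 6 or WT 7, and Scn8a stood at -0.75 without WT 3. The other abundant pore-forming genes had positive log2 fold changes without passing in the 6-library edgeR fit, while Scn1a, Scn2a and Scn3a were among the genes that DESeq2 and limma-voom called higher. Markers of neurons, the cells that use these channels, summed to 2875 to 4228 CPM in KO, and to 2931 CPM in WT 3 but 1827 and 1600 CPM in WT 6 and WT 7, and their part in the sodium and calcium channel values was not tested. Scn2a, the main axonal channel of young excitatory neurons, had 87.2, 44.4 and 53.0 CPM in KO 1, KO 2 and KO 3, against 36.5, 9.79 and 8.85 CPM in WT 3, WT 6 and WT 7. KO lay above WT in every library, with WT 3 nearer to KO 2 than to WT 6, and the log2 fold change of 1.75 (SE 0.58) had an adjusted p of 0.0612 with 6 libraries and of 0.000855 without WT 3, at 2.72 (edgeR).

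The fetal channel gene Scn3a was at 58.2, 31.2 and 44.1 CPM in KO and 33.4, 8.49 and 9.14 CPM in WT (1.39, SE 0.56, adjusted p = 0.0996, edgeR), and Scn1a, the main channel of fast-spiking interneurons, at 15.8, 10.96 and 25.5 CPM in KO and 14.0, 3.67 and 3.12 CPM in WT (1.34, SE 0.62, adjusted p = 0.143, edgeR). In both genes WT 3 lay within the range of the KO libraries. Without WT 3 they stood at 2.33 and 2.36 (adjusted p = 0.000982 and 0.0038, edgeR). Among the beta subunits, which act in gating and cell adhesion, Scn3b had 129, 80.8 and 116 CPM in KO and 89.0, 22.9 and 17.2 CPM in WT 3, WT 6 and WT 7 (1.34, SE 0.60, adjusted p = 0.132), and Scn2b had 7.63 ± 2.52 CPM in KO and 2.82 ± 2.54 CPM in WT (1.44, SE 0.63, adjusted p = 0.125, edgeR). Without WT 3 the values were 2.43 and 2.46 (adjusted p = 0.000511 and 0.00411, edgeR).

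**Figure D3:**
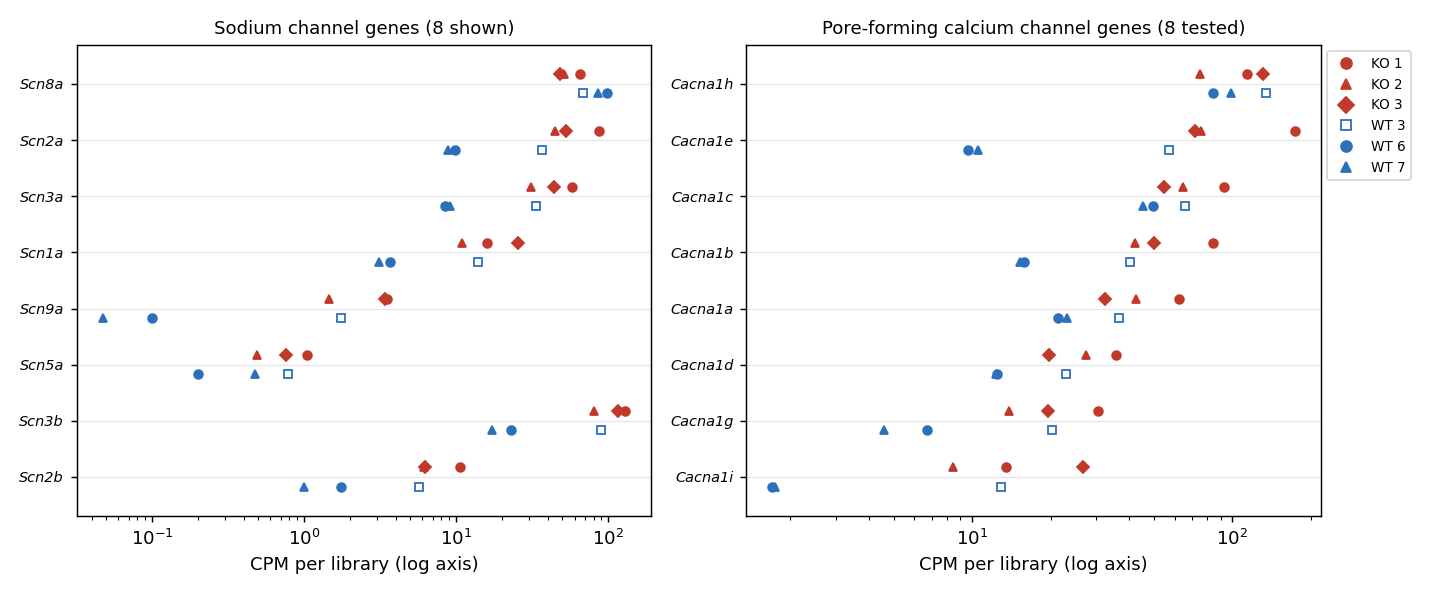
CPM of 8 tested sodium channel genes and the 8 tested pore-forming calcium channel genes in each library, on log axes, with KO in red above WT in blue. WT 3, shown as open squares, lies above WT 6 and WT 7 in all 8 calcium genes and in 7 of the 8 sodium genes shown, Scn8a being the other.

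None of the 8 tested pore-forming calcium channel genes of 10 passed. At an unadjusted p under 0.05 in edgeR there were 4, against 7251 of all 16606 tested genes. DESeq2 called 3 of 10 higher and limma-voom 7 of 8, where 14.7% and 24.9% of all genes were higher. Their median was 0.91 and all 8 values lay above 0, from 0.01 to 2.06. The most abundant, the low-voltage-activated Cacna1h, was level at 107 ± 28.9 CPM in KO and 106 ± 26.1 CPM in WT (SD, n = 3 each; 0.01, SE 0.25), and its sign changed when KO 1, KO 3, WT 6 or WT 7 was left out. Cacna1b, the pore of the N-type channel of nerve endings, had 84.4, 42.0 and 49.9 CPM in KO, against 40.5, 15.8 and 15.3 CPM in WT 3, WT 6 and WT 7 (1.30, SE 0.45, adjusted p = 0.0659, edgeR). Cacna1a, the P/Q-type pore, was at 45.9 ± 15.3 CPM in KO and 27.1 ± 8.44 CPM in WT (0.76, SE 0.30, adjusted p = 0.0959, edgeR). Without WT 3, 6 of 9 tested pore-forming calcium genes were higher and 0 lower, when 20.2% of all tested genes were higher. Cacna1b then stood at 1.92 and Cacna1a at 1.04 (adjusted p = 0.00311 and 0.0206, edgeR).

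All 8 alpha2delta and beta subunit genes of calcium channels were tested, 2 rose and 1 fell, with a median of 0.58. Alpha2delta chains, which bring the pore to the membrane, gave all 3 calls. Cacna2d3 had 22.5, 22.2 and 10.1 CPM in KO and 6.28, 5.52 and 4.69 CPM in WT (1.73, SE 0.34, adjusted p = 0.0114, edgeR). Cacna2d2 had 42.6, 22.2 and 7.99 CPM in KO 1, KO 2 and KO 3 and 7.91, 1.81 and 1.99 CPM in WT 3, WT 6 and WT 7 (2.64, SE 0.79, adjusted p = 0.0439, edgeR). KO 3 and WT 3 nearly met there, and Cacna2d2 stood at 1.99 without KO 1 and 3.66 without WT 3, and its call ended without KO 1, KO 2, WT 6 or WT 7. Cacna2d4 had only 4, 5 and 1 reads in the KO libraries and 10, 15 and 21 in WT (-2.08, SE 0.58, adjusted p = 0.0357, edgeR), its call ended without any library but WT 3, and its span overlaps Lrtm2, which has over 10% as many reads. The abundant beta subunit genes Cacnb3 (0.20, SE 0.25) and Cacnb1 (0.31, SE 0.19) and the alpha2delta gene Cacna2d1 (0.58, SE 0.26) did not pass in the 6-library edgeR fit, though Cacnb1 did without WT 3 (0.49, adjusted p = 0.0398, edgeR). Limma-voom called Cacnb1 and Cacna2d1 higher with all 6 libraries.

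Of 8 gamma subunit genes 6 were tested, 1 rose and 1 fell, with a median of 0.92. Most chains of this family are known as AMPA receptor auxiliary subunits. Cacng8 had 28.9, 30.5 and 32.6 CPM in KO and 10.8, 9.09 and 7.48 CPM in WT (1.75, SE 0.18, adjusted p = 0.00174, edgeR), a 3.36-fold rise with little spread in either group. Cacng7 fell, with 151, 164 and 218 CPM in KO and 250, 279 and 309 CPM in WT (-0.65, SE 0.17, adjusted p = 0.0271, edgeR), and its call ended without KO 1, KO 2, WT 6 or WT 7. Cacng4, the other abundant member, was at 114 ± 17.7 CPM in KO and 87.9 ± 10.5 CPM in WT (SD, n = 3 each; 0.37, SE 0.15, adjusted p = 0.105, edgeR). Cacng5 (-0.89, SE 0.62) and Cacng2 (1.48, SE 0.77) did not pass in the 6-library edgeR fit and did without WT 3 (-1.33 and 2.96, adjusted p = 0.0314 and 0.00211, edgeR). Limma-voom called Cacng2 and Cacng4 higher with all 6 libraries.

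Among the 103 tested channel genes, WT 3 lay above both other WT libraries in 67, or 65%, against 40.6% of all tested genes, and below both in 27, or 26.2%, against 41.4%. It lay within the range of the KO libraries in 52, or 50.5%, against 30.4% of all tested genes. Neuronal markers showed a like order of libraries: of 13 listed, 2 rose and 0 fell, with a median of 1.25, and their summed level was 4228, 2875 and 3306 CPM in KO 1, KO 2 and KO 3, against 2931, 1827 and 1600 CPM in WT 3, WT 6 and WT 7. Beside the marker counts of this paragraph, 13.5% of all tested genes were higher and 15.5% lower with all 6 libraries. The median log2 fold change of the tested channel genes was 1.08 without WT 3, when 20.2% of all tested genes were higher and 18.1% lower. Markers of mural and meningeal cells summed to 166 to 755 CPM in KO, KO 1 being the highest, and to 105 to 132 CPM in WT, with 2 of 12 higher, 0 lower and a median of 2.42. Endothelial markers summed to 2.79 to 5.76 CPM in KO and 4.59 to 6.98 CPM in WT, with 1 of 8 lower and a median of -0.56 over the 2 tested, and Cdh5, Tie1 and Cldn5 had no reads in WT. Microglial markers summed to 4.02 to 23.9 CPM in KO and 2.13 to 8.03 CPM in WT, with 0 of 9 past the threshold and a median of 0.90 over the 4 tested. The part of these cells in the channel results was not tested.

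**Figure D4:**
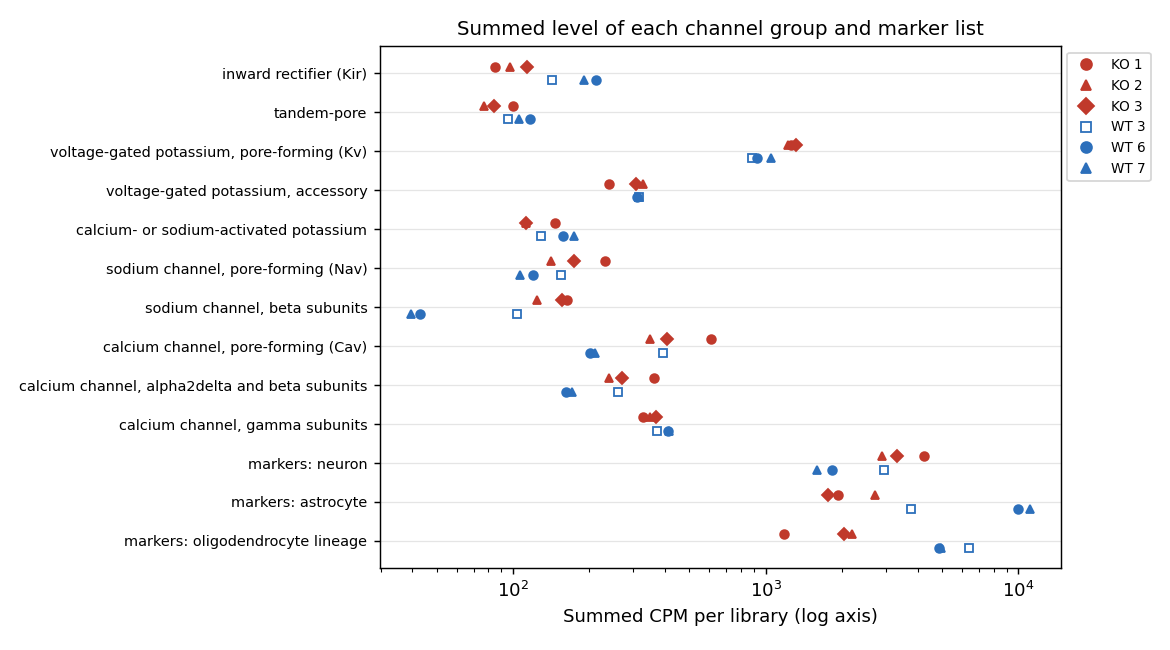
Summed CPM of each channel group, and of neuron, astrocyte and oligodendrocyte lineage markers, in each library on a log axis, with KO in red above WT in blue and WT 3 as open squares. Sodium beta subunits, pore-forming calcium channels and neuronal markers place WT 3 between WT 6 and WT 7 and most KO libraries. Summed inward rectifiers and astrocyte markers are lower in all KO libraries than in all WT libraries. Kcnj10 alone holds 34.4 to 61.7 CPM of the inward rectifier sum in KO and 103 to 173 CPM in WT. The median log2 fold change of that group is 0.47, with 2 genes higher and 2 lower.

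Genes outside the channel families that act with them moved in both directions. For comparison with the counts below, 13.5% of all tested genes were higher and 15.5% lower in KO. Among subunits of the sodium-potassium pump, which restores the gradients the channels use, 3 of 10 tested genes rose and 3 fell, with a median of 0.40. The pump regulator Fxyd1 (-3.25, SE 0.59) and the beta subunit Atp1b2 (-1.39, SE 0.29) fell, and the Atp1b2 call ended without KO 2. Of 6 genes of the astrocyte water channel and dystrophin complex, which sits with Kcnj10 at astrocyte endfeet, 3 fell and 0 rose, with a median of -1.48, among them Aqp4 (-2.66, SE 0.40) and Dtna (-1.74, SE 0.30). Accessory proteins of potassium channels gave 2 higher and 3 lower of 10 tested, with a median of 0.29, Lgi3 (-2.85, SE 0.22) and Amigo1 (-0.73, SE 0.12) lower and Lgi2 (1.98, SE 0.53) higher, the last only with all 6 libraries or without WT 3. Modulators and axonal anchors of sodium channels gave 2 higher and 1 lower of 9 with a median of -0.04, the adhesion protein gene Nfasc falling by 1.70 (SE 0.25) and Ank3 (1.39, SE 0.40) and Fgf12 (0.73, SE 0.18) rising, both only while KO 1, KO 2, WT 6 and WT 7 were kept. Of 19 tested genes of calcium extrusion, stores and store-operated entry, 6 rose and 2 fell, with a median of 0.52, led by the store release channel gene Itpr2 (-1.50, SE 0.25), the calcium pump gene Atp2b1 (0.90, SE 0.16) and the store sensor gene Stim1 (-0.84, SE 0.17). Of 8 genes of HCN and NALCN channels 1 fell, the leak channel gene Nalcn (-0.83, SE 0.20), and its call ended without WT 6 or KO 2. Adjusted p-values of the genes named here lay between 0.000912 and 0.0393 (edgeR).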

How the data were processed

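RNA-seq of 6 neurosphere libraries was analysed. The submitters' processing notes list the aligner HISAT2 (version 2.0.5), the counter featureCounts (1.5.0-p3) and DESeq2 (1.16.1), with mm10 as build. Settings, annotation and the use of strand are not stated. The authors deposited read counts per gene, whole numbers without normalisation, as the column sums show. The authors also deposited FPKM per gene, recognised from the values, which follow from count, gene length and library total.

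All 54532 genes entered 1 fit of the 3 KO and 3 WT libraries without covariates, with the default filterByExpr filter (16606 genes kept), TMM scaling and the two-sided quasi-likelihood F test of edgeR 4.0.16 (R 4.3.3). P-values were adjusted by Benjamini-Hochberg over all tested genes, and the threshold was 0.05. SE is the absolute log2 fold change divided by the square root of F. The biological coefficient of variation was 26.5%. Permuting 3 against 3 libraries exactly gives no p below 0.1, so single genes were not tested in that way. Channel genes, their groups, the partner and marker lists and the rule for naming genes were chosen with earlier results of these data known. Named were all called channel genes, the 3 uncalled ones of highest mean FPKM per group and the 3 called genes of lowest p per partner list, and some genes that this rule names are not reported here. Spans that overlap another gene were read from the table's coordinates.

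Alternatives were RLE scaling, library totals, no filter, 1 CPM in 3 libraries, DESeq2 1.42.0 on the counts, voom with quality weights (limma 3.58.1), limma after adding 1 or 0.1 to FPKM and taking log2 (mean FPKM 0.5 or more), and leaving out each library.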

Additional observations from a re-analysis of the deposited data

How the results depend on the processing

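No paired analysis was possible because the groups share only replicate number 3. The 16 higher and 10 lower channel genes became 30 higher without a filter (8.1% of all genes higher), 35 with DESeq2 (14.7%) and 53 with limma-voom (24.9%), against 13.5% of all genes in the main setting, and the count of lower ones stayed within 1.5 times under the 8 alternatives that kept all libraries. Over all genes, 2240 higher and 2572 lower became 4133 and 3919 with limma-voom. Leaving out 1 library gave 7 to 51 channel genes higher and 5 to 17 lower, and over all genes 1027 to 3500 higher and 1151 to 3141 lower, the highest counts being those without WT 3. Of the 26 called channel genes, 22 kept direction and call in all of the 8 alternatives with 6 libraries that tested them. The exceptions were Cacna2d2 with log2(FPKM + 1) (1.35, adjusted p = 0.0566, limma), Kcnv1 with log2(FPKM + 0.1) (1.10, adjusted p = 0.0507, limma), Scn8a on both FPKM scales (adjusted p = 0.068 and 0.067, limma) and Cacna2d4 with DESeq2 (-2.09, adjusted p = 0.0581). Of the named genes, 2 changed sign, neither past the threshold: Kcnk10 with limma-voom (-0.033) and over -0.15 to 0.15 with 1 library left out, and Cacna1h over -0.15 to 0.22 with 1 library left out. The cause of these differences was not tested. Genes with fewer than 3 reads per library, such as Cacna2d4 in KO 3, are near the limit of this depth.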
